A study of Homo sapiens with 2 samples.

Results

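The genes described here encode the TAL1, LMO2 and LDB1 complex and the close relatives of its parts: TAL1, LYL1, TAL2, LMO1, LMO2, LMO4, LDB1, TCF3 and TCF12. They were chosen by name, as those array probes whose annotation gave a distance to the start of 1 of these genes. Their values were not used, but earlier results of these data were known when the list was made. These 9 genes were among 17280 gene names on the arrays, and their 408 probes were among 474411 genomic probes. All 408 passed the filter on flagged and dim spots, no gene of the 9 was without a value, and no probe of theirs carried the symbol of another gene. The 11 probes upstream of LYL1 also carried transcripts of NFIX and TRMT1, which lie farther away.

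Chromatin from untreated Meg-01 cells, an established human megakaryocytic leukemia line, was pulled down in 1 ChIP-on-Chip experiment. The IP used the C-20 antibody, raised to the C-terminus of GATA1, and was labeled with Cy5. The background was a pull-down of the same chromatin with normal goat IgG, labeled with Cy3 and hybridized together with the IP. The 2 arrays, chIP1 and chIP2 as the samples are titled, hold different probes, so each probe was measured in 1 hybridization, with neither a replicate nor a dye swap.

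No error between samples can therefore be given and no p-value was computed. Each value is instead set beside the same value over all genes or windows of the arrays. TAL1, TAL2 and LMO4 were on chIP1 and the other 6 genes on chIP2. The median raw signal of a genomic probe was 543 and 544 in the IP channel against 342 and 340 for negative control spots, so most probes were not far above the controls. The 480 spots of 1 control probe had an SD of 0.048 and 0.044 on the log2 scale, which covers spotting and scanning only. That control probe was bright, with median processed IP signals of 4070 and 3219, so its SD does not give the spread of dim probes. The arrays measure recovered DNA, so the identity of the cells could not be checked against expressed markers.

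TAL1 is a basic helix-loop-helix (bHLH) factor without which blood cells do not form, and LYL1 and TAL2 are its nearest relatives. Such factors bind an E-box (CAGNTG) as a dimer with an E protein, TCF3 or TCF12, and in red cell and megakaryocyte precursors the dimer is joined to GATA1 by an adaptor of LIM domains (LMO2) and by LDB1, which dimerizes and can hold distant sites together. TAL1, LYL1, TAL2, LMO1 and LMO2 are known as genes activated by translocation or deletion in T-cell leukemia. GATA1 itself recognizes the letters GATA within short motifs such as TGATAA.

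The RefSeq promoters of these genes are described first. RefSeq promoters (GRCh38.p14, from 250 bases before to 50 bases after a start) were matched by symbol for 8 of the 9 genes, with 14 promoters in all. A GATA site was searched as AGATAA, then as AGATAG, then as TGATAA and then as TGATAG, on both strands. Of all 35116 RefSeq promoters, 25.0% held one. Among the 14 promoters here, 2 did, in TAL1 and LYL1. The 250 bases before the TAL1 start (chr1:47232336-47232585, minus strand), before the LYL1 start (chr19:13102859-13103108, minus strand) and, for contrast, before the TAL2 start (chr9:105662207-105662456, plus strand) are printed 5′ to 3′ with GATA sites in capitals, which read as their reverse complement here. TAL2 was picked by its array values, as the gene with the lowest mean log2 ratio of probes within 1000 bp of its start (-0.79). That mean was 0.71 in LYL1 and 0.38 in TAL1. Among matched genes without a site it was 0.41 in LMO4, 0.35 in LDB1 and 0.32 in TCF3. In TCF12, with its starts pooled, it was 0.10, and in LMO1 it was -0.18. A link between these letters and the array values was not tested.
TAL1: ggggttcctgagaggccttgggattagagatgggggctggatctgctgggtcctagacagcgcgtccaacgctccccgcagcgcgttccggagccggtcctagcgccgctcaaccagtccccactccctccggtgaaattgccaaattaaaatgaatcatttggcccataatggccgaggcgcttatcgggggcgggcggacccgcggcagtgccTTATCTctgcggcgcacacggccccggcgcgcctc
LYL1: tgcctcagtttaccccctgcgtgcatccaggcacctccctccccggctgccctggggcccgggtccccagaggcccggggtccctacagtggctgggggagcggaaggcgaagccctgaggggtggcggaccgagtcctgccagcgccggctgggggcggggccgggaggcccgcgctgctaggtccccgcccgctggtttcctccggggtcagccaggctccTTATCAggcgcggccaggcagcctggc
TAL2: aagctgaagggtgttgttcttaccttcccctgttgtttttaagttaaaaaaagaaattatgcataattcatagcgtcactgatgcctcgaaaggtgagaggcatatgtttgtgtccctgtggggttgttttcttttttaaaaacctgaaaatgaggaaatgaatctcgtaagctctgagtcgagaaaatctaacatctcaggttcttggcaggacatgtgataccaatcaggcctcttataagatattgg

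The TAL1 site lay at -35 to -30, counted from the base before the start as -1. In LYL1 one site lay at -27 to -22 and another at 3 to 8, just past the start. The stretch from -15 to 15 that holds the latter (chr19:13102844-13102873, minus strand) is shown with the site in capitals.
LYL1 start: gccaggcagcctggcccTTATCTgcactgg

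Both LYL1 sites also matched the letters CTG followed by 6 to 10 bases and GATA, an E-box end joined to a GATA site, overlapping them at -26 to -11 and at 4 to 20. Of all RefSeq promoters 8.84% held this combination. A complete E-box occurred in 49.9% of all RefSeq promoters and in 1 of the 14 here, in LMO4 at 17 to 22. RefSeq gives a further TAL1 start 620 bp away and a further, downstream LMO4 start (promoter at chr1:87331494-87331793). Which of the starts the array counts from was not determined for either gene. The files do not name their genome build, so the array coordinates below were not joined to these sequences by position. These matches describe letters, not bound sites.

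Values below are log2 ratios of the IP to the IgG intensity, shifted so that each array has a median of 0. On this scale 1 is a 2-fold excess in the IP and -1 a 2-fold excess in the IgG. A window is the mean of 3 adjacent probes no more than 1000 bp apart. A window at or above 1 is called enriched, or on the IP side, and a window at or below -1 is called on the IgG side, which is the background measured in the same way. Positions are distances to the start that the array annotation gives, negative upstream.

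An enriched window was found at 7 of the 9 genes, that is at all but LMO1 and LMO2, against 57.1% of all 17054 genes with a window. On the IgG side, 7 of the 9 had a window as well, at all but TAL1 and LYL1, against 52.9% of all genes. Both kinds were present at 5 of the 9 genes and at 31.3% of all genes. These genes are covered more densely, with a median of 40 windows each against 23, and among the 8727 genes with 23 to 77 windows, the range of the 9, the shares were 68.8% and 66.8%. Of the 387 windows at the 9 genes, 24 (6.20%) were enriched and 34 (8.79%) were on the IgG side, against 7.62% and 9.65% of all 415403 windows. As a group the genes therefore held about as many windows on either side as the arrays do. The median of their highest windows was 1.45, against 1.09 over all genes and 1.24 over genes with 23 to 77 windows. The paragraphs below follow the genes by role.

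TAL1 had 5 enriched windows of 33 and none on the IgG side, the lowest being -0.65. They lay in separate places, a run of 4 upstream and 1 over the start. The upstream run covered chr1:47409540-47410598 (1059 bp, as the files give it), and its highest window, centred at -2655 bp, had a mean of 1.85, or 3.60-fold. That window stood at percentile 99.0 of all windows on its array and, as the highest of its gene, at percentile 87.4 of all genes there.

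The probe at -2537 bp read 1967 in the IP and 673 in the IgG (1.55), that at -2655 bp 3623 and 781 (2.22), and that at -2839 bp 20072 and 5864 (1.78). All 3 probes of the window thus exceeded 1, and they were brighter than most, with the window at percentile 88.1 of the probe intensities of the array. The next probe toward the start, at -2384 bp, read 1.02, and beyond these the values dropped to 0.11 at -3110 bp and 0.60 at -2100 bp.

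At the TAL1 start, the window centred at -54 bp (chr1:47407368-47407643) had a mean of 1.07. Its probe at 73 bp read 3524 in the IP and 2162 in the IgG (0.71), that at -54 bp 2469 and 883 (1.49), and that at -157 bp 2619 and 1287 (1.03). The excess was narrow, since the probes at 185 and -523 bp read 0.16 and -0.07. Windows near starts lean to the IP on these arrays in general, and after removal of that trend with distance this window was at 0.79, below 2-fold. Under the other 7 alternatives applied to it, it lay between 1.03 and 1.08. A single probe at -1492 bp also stood out at 1.96, with 748 in the IP and 192 in the IgG, and the windows around it stayed below 1.

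LYL1 had 2 enriched windows of 23, both over the start, and none on the IgG side. They covered chr19:13074319-13074984 (666 bp), and the higher, centred at -24 bp, had a mean of 1.29 (percentile 65.9 of the highest windows of all genes on chIP2). The probe at 157 bp read 2144 in the IP and 667 in the IgG (1.68), that at -24 bp 3838 and 1521 (1.33), and that at -280 bp 9204 and 5009 (0.87). Values fell to both sides, to 0.39 at 493 bp and 0.06 at -539 bp. After removal of the trend with distance the window was at 1.05. The highest LYL1 window of 5 probes was just under 2-fold, at 0.997.

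The whole LYL1 locus leaned to the IP. Of its 23 windows, 21 were above 0, and its lowest window was -0.26. The mean of the 10 probes within 1000 bp of its start was 0.71 ± 0.48 (SD over probes), at percentile 89.3 of all genes on chIP2 and the highest of the 9. Its probes from -1616 to -1833 bp were also raised, at 0.96, 1.03 and 0.88, without reaching the 2-fold threshold as a window. These are probes whose annotation also gives NFIX and TRMT1 transcripts.

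TAL2 ran the other way. Only 4 of its 24 windows were above 0, and 10 were on the IgG side. The mean of the 6 probes within 1000 bp of the TAL2 start was -0.79 ± 0.20 (SD over probes), at percentile 3.85 of all genes on chIP1. Every one of the 6 was below 0, from -0.56 to -1.06. The windows on the IgG side formed a run of 4 at chr9:105500688-105502956 with a lowest mean of -1.80 at -2798 bp, and 6 more lay at chr9:105504719-105506830 with a lowest mean of -1.33 at 2128 bp. The window at 1872 bp, which lies between some of these 6 and is not counted with them, fell short of the threshold, at -0.93. The deepest probe, at -2798 bp, read 1074 in the IP and 4944 in the IgG (-2.20).

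Beside this, TAL2 had 2 enriched windows, at chr9:105499997-105500464, with a highest mean of 1.47 at -4210 bp. That mean rested largely on 1 probe. The probe at -4210 bp read 1882 in the IP and 341 in the IgG (2.47), whereas its neighbors at -4312 and -4037 bp read 1.02 and 0.94. In windows of 5 probes the highest TAL2 window was 0.84, below 2-fold.

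**Figure D1:**
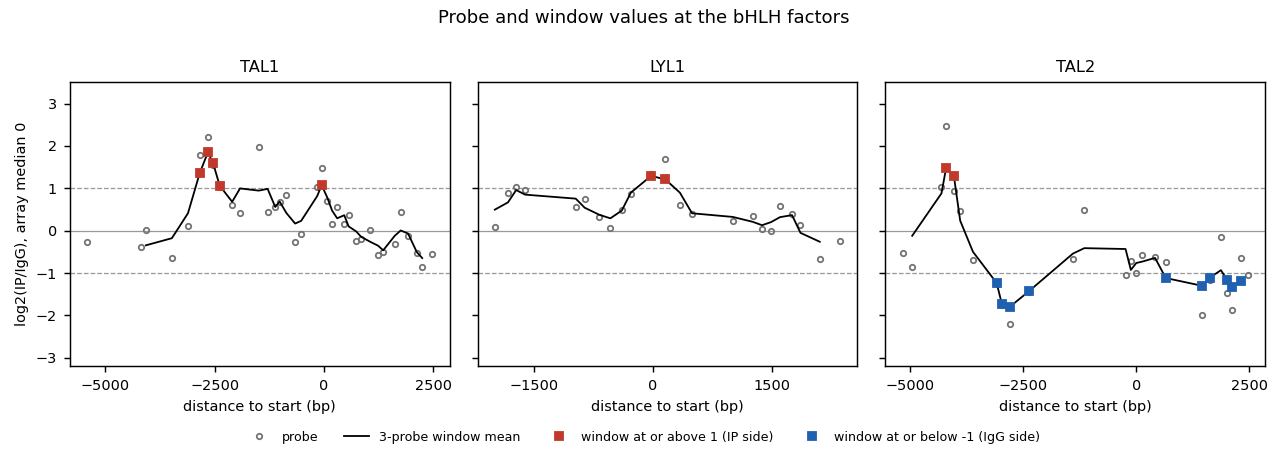
Log2(IP/IgG) with array median 0 (vertical axis) against distance to the annotated start in bp (horizontal axis) at TAL1, LYL1 and TAL2. Open circles are probes, the line joins means of 3 adjacent probes, red squares are windows at or above 1 and blue squares windows at or below -1. TAL1 rises to 1.85 at -2655 bp and to 1.07 at its start, LYL1 rises to 1.29 at its start, and TAL2 lies below 0 in all but 4 of 24 windows.

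Among the LIM-only genes, which encode adaptors of little more than LIM domains, LMO1 and LMO2 had no enriched window and LMO4 had 5. The highest LMO2 window was 0.74, or 1.67-fold, at percentile 26.3 of all genes on chIP2, the lowest highest window of the 9 genes. LMO2 is covered in separate stretches, around its annotated start and 17349 to 21519 bp inside it (chr11:33848865-33853091). The highest window was in the inner stretch, at 18371 bp. In the inner stretch 11 of 13 windows were above 0, and none reached 1 or -1.

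Around the annotated LMO2 start the probes were flat. The 8 probes within 1000 bp averaged -0.06 ± 0.31 (SD over probes), and the highest window was 0.68 at -4617 bp. The probe at 18 bp read 1557 in the IP and 1994 in the IgG (-0.36), and the probe at -121 bp read 2435 and 3113 (-0.36). The sign of this mean depended on the background correction, since with normexp it was 0.12. The only LMO2 window past a threshold was on the IgG side, -1.25 at -3814 bp, and no LMO2 window was past -1 with normexp or in windows of 5 probes.

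LMO1 likewise had no enriched window among 40, with a highest of 0.88 at 2736 bp, the edge of its probes. It had 3 windows on the IgG side, at chr11:8244708-8246165, with a lowest mean of -1.76 at -3215 bp. The probe at -3215 bp read 195 in the IP and 768 in the IgG (-1.99), and the probe at -3632 bp read 499 and 2722 (-2.45). The mean within 1000 bp of the start was -0.18 ± 0.55 (SD over 10 probes), at percentile 19.2.

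LMO4, a LIM-only gene expressed in many tissues, had 4 windows of 65 on the IgG side and 5 enriched. The enriched windows lay at 2 places that the array annotation puts inside the gene. The highest, 1.52 at 1003 bp (chr1:87507049-87507301), was also among the dimmest windows of the array, at percentile 2.41 of intensity. The probe at 904 bp read 84.3 in the IP and 24.5 in the IgG (1.78), that at 1003 bp 72.6 and 22.7 (1.68), and that at 1103 bp 499 and 231 (1.11). With normexp correction, which draws dim ratios toward 0, the highest LMO4 window was 0.61, so this call was lost. The other enriched place, at chr1:87508931-87509848, rested on a single probe at 2992 bp that read 327 and 44.5 (2.88), between probes of 0.15 and 0.27.

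On the IgG side, the 4 LMO4 windows lay together at chr1:87509911-87510775, with a lowest mean of -1.52 at 4082 bp. The lowest of them was not dim, at percentile 70.1 of intensity. Their probes from 3967 to 4455 bp lay between -1.29 and -1.79, all in the same direction. The mean of the 13 probes within 1000 bp of the LMO4 start was 0.41 ± 0.58 (SD over probes).

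LDB1, the bridging protein of the complex, had 4 enriched windows of 40 and 2 on the IgG side. At its upstream edge the sides followed each other closely. Windows from -4688 to -4966 bp (chr10:103869064-103869868) were enriched, with a highest mean of 1.45, and those at -4174 and -3973 bp (chr10:103868459-103868993) were on the IgG side, with a lowest mean of -1.35. The probe at -4839 bp read 905 in the IP and 183 in the IgG (2.30) and the probe at -4174 bp read 153 and 688 (-2.18). Both are dim to middling, at percentiles 39.9 and 54.4 of intensity for the highest and the lowest window.

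A further LDB1 window inside the gene, at 2211 bp (chr10:103862209-103862605), had a lower mean, 1.22, but more even probes. The probe at 2461 bp read 1642 in the IP and 757 in the IgG (1.11), that at 2211 bp 1040 and 384 (1.43), and that at 2112 bp 3000 and 1370 (1.12). These were the last probes of the locus on that side, so the extent of the excess was not measured. The mean within 1000 bp of the LDB1 start was 0.35 ± 0.49 (SD over 9 probes), at percentile 65.0.

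**Figure D2:**
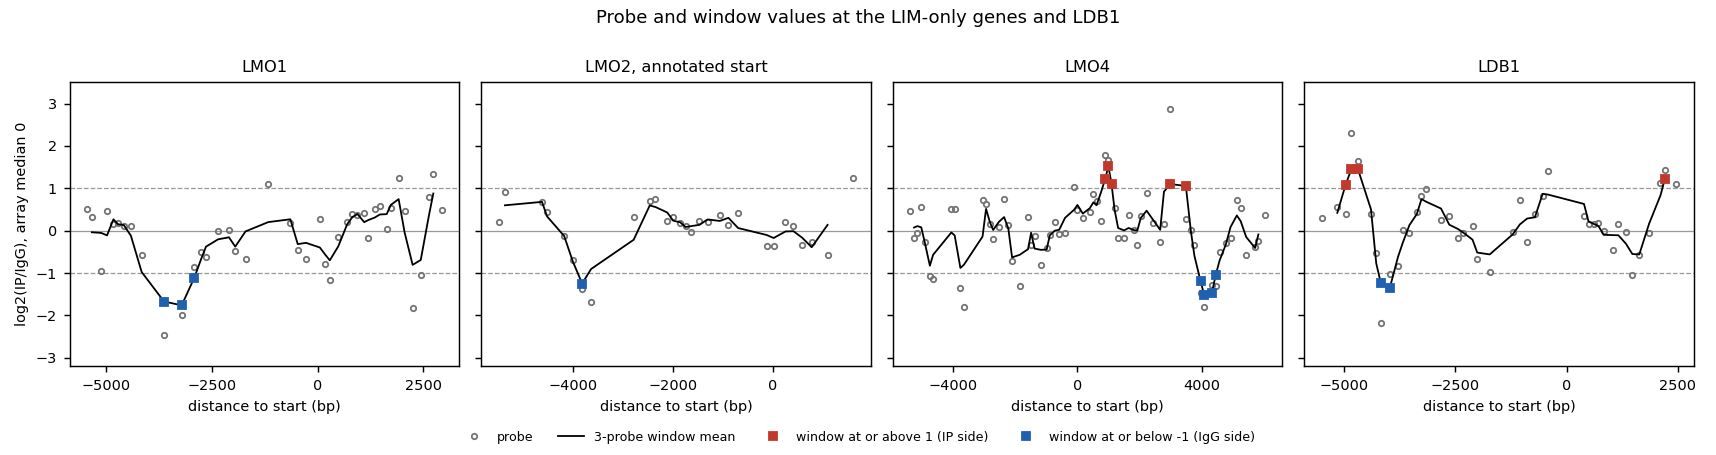
Log2(IP/IgG) with array median 0 (vertical axis) against distance to the annotated start in bp (horizontal axis) at LMO1, LMO2 (the stretch around its annotated start), LMO4 and LDB1. Symbols are as for the bHLH factors: circles for probes, a line for 3-probe means, red and blue squares for windows at or above 1 and at or below -1. LMO1 and LMO2 have no red square, while LMO4 and LDB1 have both red and blue ones.

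The E proteins differed. TCF3, a widely expressed dimer partner of tissue-restricted bHLH factors, held the highest window of the 9 genes. That window, centred at -3071 bp (chr19:1604220-1605370), had a mean of 2.12, or 4.34-fold, at percentile 99.5 of all windows on chIP2 and percentile 93.7 as the highest window of a gene. The probe at -2965 bp read 685 in the IP and 221 in the IgG (1.63), that at -3071 bp 1513 and 177 (3.09), and that at -4071 bp 2159 and 688 (1.64). A rise led up to it from -2485 bp, over probes of 0.83, 0.55, 1.03 and 1.32, and it ended by -4438 bp (0.32).

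No probe in use lies between those at -3071 and -4071 bp, so the shape of the TCF3 peak is not known there. With neighbors limited to 500 bp, the highest TCF3 window was 2.01, at -2965 bp. Under the alternatives run, the highest TCF3 window stayed between 1.40 and 3.09. At the TCF3 start the values were modest, 0.63 at -26 bp and 0.99 at -124 bp, with no window past 1, and the mean within 1000 bp was 0.32 ± 0.79 (SD over 10 probes). A separate enriched window at -1093 bp (1.26) had dim outer probes, 344 and 94.3 at -905 bp and 218 and 70.8 at -1214 bp in IP and IgG. The 10 probes from 39422 to 40967 bp inside TCF3 held 1 window on the IgG side, -1.24, and none enriched.

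TCF12, the other E protein here, has a pair of annotated starts on the array, far apart on chr15. Around the upstream start (chr15:54992977-55000613) 1 of 32 windows was enriched, 1.11 at -625 bp, and 2 were on the IgG side. The mean of the 11 probes within 1000 bp of it was 0.62 ± 0.50 (SD over probes). All but 2 of them, at -998 and -881 bp, read above 0.2. The enriched window lay near the threshold, and it was 0.99 with the trend on distance removed. In windows of 5 probes the highest TCF12 window was 0.97.

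Around the downstream TCF12 start (chr15:55293497-55301407) none of 45 windows was enriched and 11 were on the IgG side, of which 10 lay within chr15:55294883-55298486 (3604 bp). They were not all adjacent, since 3 lay from -3745 to -3446 bp, 1 at -3238 bp, 1 at -2137 bp and 5 from -1358 to -647 bp. Between them windows at -1767 and -1629 bp leaned to the IP, at 0.39 and 0.50, around a probe at -1629 bp that read 454 in the IP and 96.0 in the IgG (2.23). The lowest of the 10, -2.27 at -998 bp, was the lowest of the 9 genes, at percentile 5.70 of the lowest windows of all genes on chIP2. It was also dim, at percentile 9.45 of intensity. Its probe at -1253 bp read 352 in the IP and 1309 in the IgG (-1.90), that at -998 bp 43.1 and 293 (-2.77), and that at -893 bp 40.2 and 177 (-2.14). With normexp correction the lowest TCF12 window was -1.09, still past the threshold.

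At the downstream start itself the values were on the IP side of 0. The window at -52 bp had a mean of 0.98, just under 2-fold, with probes of 0.55 at -251 bp, 0.86 at -52 bp and 1.54 at 52 bp. The IP and IgG intensities of these probes were 898 and 611, 1316 and 721, and 912 and 313. Under the 8 alternatives applied to it this window lay between 0.74 and 1.06, past the threshold only with loess. The probes within 1000 bp of this start averaged -0.41 ± 1.25 (SD over 11 probes), the widest spread of any start here.

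**Figure D3:**
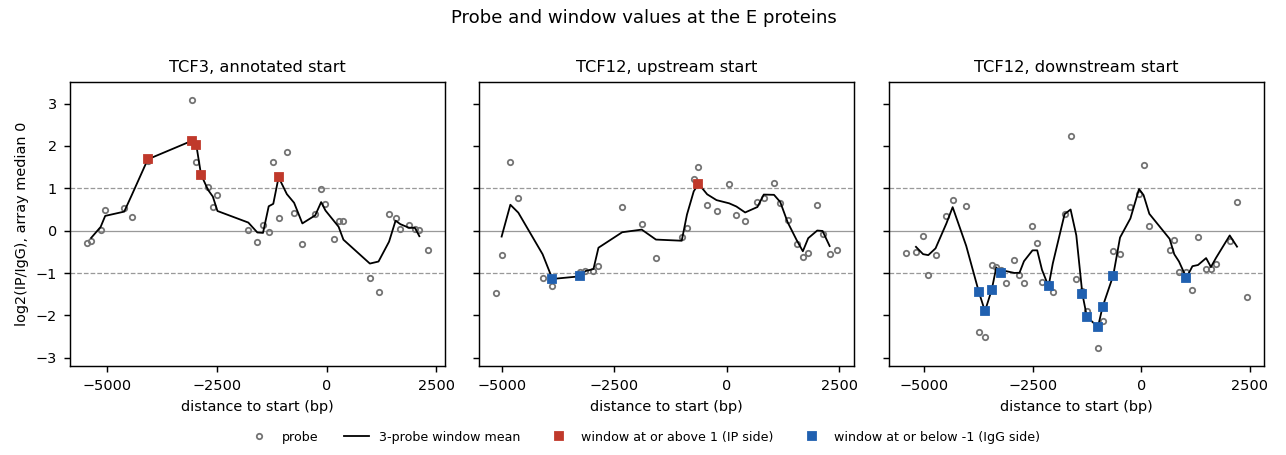
Log2(IP/IgG) with array median 0 (vertical axis) against distance to the annotated start in bp (horizontal axis) at TCF3 and at the upstream and downstream starts of TCF12. Circles are probes, the line joins 3-probe means, red squares are windows at or above 1 and blue squares windows at or below -1. TCF3 peaks at 2.12 at -3071 bp, and TCF12 reaches 1.11 at -625 bp from its upstream start. The downstream TCF12 locus holds 11 windows on the IgG side with a rise to 0.98 at the start.

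Set side by side, the order of the highest windows was TCF3 (2.12), TAL1 (1.85), LMO4 (1.52), TAL2 (1.47), LDB1 (1.45), LYL1 (1.29), TCF12 (1.11), LMO1 (0.88) and LMO2 (0.74). The 3 probes of each window span more than the steps between neighbors in this order, for example 1.55 to 2.22 in TAL1 and 1.63 to 3.09 in TCF3. These probes lie at different positions, so their span is not an error of the window mean. With 1 hybridization no such error can be given, and the order of neighbors was not tested. The range over all genes was wide as well, with highest windows from 0.28 at the 5th percentile to 2.24 at the 95th. All 9 genes lay inside that range. In the lowest windows LYL1 and TAL1 were the least negative of the 9, at percentiles 90.3 and 77.5 of all genes on their arrays.

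**Figure D4:**
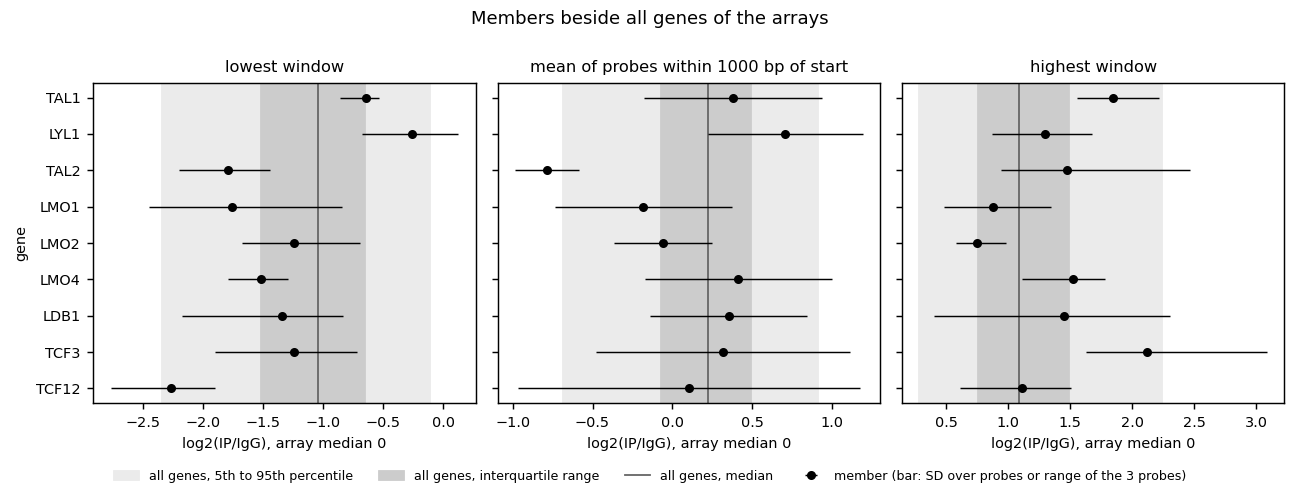
Lowest window, mean of probes within 1000 bp of the start, and highest window of the 9 genes (points), in log2(IP/IgG) with array median 0 on the horizontal axes. Bars give the range of the 3 probes of the window, or the SD over probes in the middle panel, where both TCF12 starts are pooled, and grey bands give the percentiles of all genes. TAL2 (-0.79) falls below the 5th percentile of start means, and all highest windows lie within the 5th to 95th percentile band.

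By distance, 13 of the 24 enriched windows lay far upstream, in a single run each at TAL1, TAL2, LDB1 and TCF3. From -6000 to -2000 bp 13 of 125 windows (10.4%) were enriched, against 6.56% of all windows at that distance. Within 500 bp of a start 3 of 51 (5.88%) were, against 10.4%, and they were the TAL1 and LYL1 windows above. From -2000 to -500 bp 2 of 69 (2.90%) were enriched, against 7.25%. From 500 to 2500 bp 4 of 98 (4.08%) were, against 7.21%. The IgG side held 13.6% of the windows from -6000 to -2000 bp, against 14.9% of all windows, and none of the 51 within 500 bp of a start, against 4.12%. With the windows of each array sorted by intensity into 4 equal groups, dimmest first, these genes had 81, 91, 89 and 126 windows in them. The enriched windows numbered 5, 5, 7 and 7 and the IgG-side windows 10, 11, 10 and 3. Of all windows in the dimmest group 11.0% on chIP1 and 11.6% on chIP2 were enriched, and the IgG side held 19.6% and 20.2%. In the brightest group 6.95% and 5.43% were enriched, and the IgG side held 1.91% and 1.75%. Windows that overlap share probes, so these counts are fewer independent places than they appear.

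**Figure D5:**
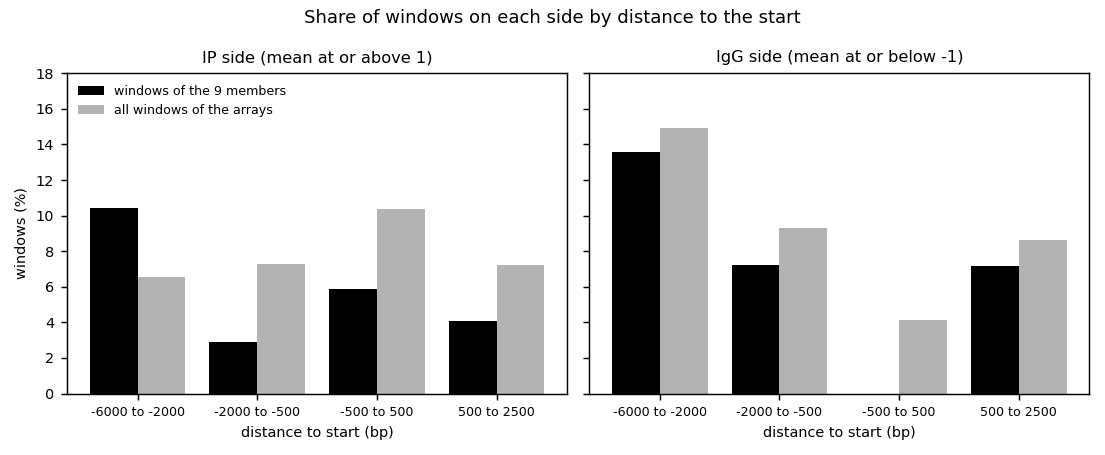
Share of windows in percent (vertical axis) on the IP side (left) and on the IgG side (right) in 4 ranges of distance to the start in bp, for the windows of the 9 genes (black) and for all windows of the arrays (grey). The 9 genes have 10.4% on the IP side far upstream against 6.56% of all windows, and a lower share than all windows in each other range. They have no IgG-side window within 500 bp of a start.

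Promoter base composition varied over these genes and is given beside the values. The GC content of the RefSeq promoters was 41.0% in TAL2 and 50.7% in LMO1, against a median of 58.7% over all RefSeq promoters. The probe means around their starts were below 0, -0.79 in TAL2 and -0.18 in LMO1. LMO2 was below 0 as well and had no promoter matched. The promoters of LYL1 (74.7%), TCF3 (78.3%), LMO4 (73.3% and 74.0%), LDB1 (67.0%) and TAL1 (54.3% and 64.3%) belonged to genes with start means above 0. The 5 TCF12 promoters ranged from 36.7% to 75.0% and were not matched to the starts on the array. The part of base composition in these values was not tested.

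The genes that work with the complex were described from a list of 22, of which 21 had windows, with GFI1B not analysed here. Of the 21, 13 had an enriched window, 10 had one on the IgG side, and 7 had both, against 57.1%, 52.9% and 31.3% of all genes. Of their 873 windows, 74 (8.48%) were enriched and 100 (11.5%) were on the IgG side, against 7.62% and 9.65% of all windows. The GATA factors, DNA-binding partners or relatives of the partner of the complex, had an enriched window at 3 of 3. Of genes with 23 to 77 windows, a range that holds these 3, 68.8% had one. GATA1 had 10 of 24 windows enriched, with a highest of 1.63 at 404 bp, and GATA2 had 13 of 68, with a highest of 1.77. GATA3, a factor of T cells, reached 1.38 with 3 windows on either side. That mean rested largely on 1 probe of 3.28, with the centre probe at 0.27. The mean within 1000 bp of the GATA3 start was -0.52, at percentile 7.80.

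TCF4, the remaining E protein, and the ID genes, whose products bind E proteins and keep them from DNA, had an enriched window at 5 of 5. These 5 also fall among the genes with 23 to 77 windows, of which 68.8% had one. ID2 stood highest of the listed genes, with 2.69 at -4359 bp (percentile 98.4 of chIP1) and 14 of 38 windows enriched. The highest ID2 window was dim, at percentile 21.7 of intensity. ID3 had 9 of 37 enriched, with a highest of 1.27, and ID4 (1.28), ID1 (1.03) and TCF4 (1.03) had 1 each. Of the 2 further LIM-only and LIM-domain-binding genes, LMO3 reached 1.65 at 73 bp but had 30 of 77 windows on the IgG side. That highest window was dim, at percentile 11.9 of intensity. The other gene had no enriched window, and together they had 41 of 102 windows (40.2%) on the IgG side. Of the SSBP genes, whose products stabilize LDB1, SSBP2 reached 1.68 and the other 2 had no enriched window.

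The corepressors that TAL1 complexes recruit were mixed. Among the ETO family, RUNX1T1 reached 1.66 with 35 of 161 windows on the IgG side, CBFA2T3, a known partner of TAL1, reached 1.28, and CBFA2T2 had the lowest highest window of the list, -0.03. Of the other 5 corepressors SIN3A had an enriched window (1.11), and AOF2, the histone demethylase now named KDM1A, was the lowest at 0.47. In all, 13 of 21 is close to the 57.1% of all genes.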

How the data were processed

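Members and gene lists were chosen with earlier results of these data known. The authors deposited scanner output, which per the file headers came from the ChIP protocol of Agilent Feature Extraction 9.5.3.1. Deposited processed intensities were background-subtracted by a fitted surface and dye-normalized, deposited mean and background intensities were raw, the deposited log10 ratio was Cy5 over Cy3, and the deposited p-value came from the scanner error model within 1 array. The genome build is not given in the sources used here. The study's lowess and peak calling were not used as the main setting.

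Here log2 of processed IP over IgG intensity was centred on each array's median, after removal of control spots, non-uniform spots and probes above background in neither channel (473868 of 474411 genomic probes kept). Windows were 3 adjacent probes with starts no more than 1000 bp apart, with a 2-fold threshold. How often noise alone carries a window past this threshold was not tested. Every member was named, and other pathway genes only from a highest window of 1 up or as the 2 lowest. Alternatives were loess, normexp (limma 3.58.1, offset 50), the series value table, dim-probe filters, 1 or 5 probes, 500 bp spacing, a distance trend, whole annotation, 1.5- and 3-fold, and a rule on the deposited p-value. Values of 3 start windows under these alternatives were added after seeing the data. The number of arrays limits the precision.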

Additional observations from a re-analysis of the deposited data

How the results depend on the processing

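No paired analysis was possible because the arrays share no probes and nothing was tested across samples. The alternatives gave 90 values of the highest windows, and 83 of them kept their side of the 2-fold threshold. The 7 others were LMO4 with normexp (0.61), LMO1 (1.34) and LMO2 (1.24) as single probes, LYL1 (0.997), TAL2 (0.84) and TCF12 (0.97) in windows of 5 probes, and TCF12 without the distance trend (0.99). Of 90 values of the lowest windows 84 did, the others being LMO2, LDB1 and TCF3 with normexp and with 5 probes. No value past a threshold changed sign. Of 108 means of probes, 104 kept their sign. Genes with an enriched window numbered 4 with 5 probes (34.1% of all genes) and 2 at 3-fold (20.6%). Genes with an IgG-side window numbered 4 with normexp (23.9%), 4 with 5 probes (33.5%) and 3 at 3-fold (22.3%). The share of enriched windows was 10.3% as single probes (11.8% over all windows), 19.6% at 1.5-fold (19.3%), 1.29% at 3-fold (1.79%) and 14.2% by the scanner error model (15.02%). The IgG-side share was 2.58% with normexp (2.50%) and 13.2% (14.4%), 19.1% (21.0%), 2.07% (2.74%) and 18.3% (17.4%) in that same order. The median highest window was 2.23 as single probes (1.73 over all genes) and 1.00 with 5 probes (0.81). Apart from the thresholds and window sizes, which act by construction, the cause was not tested.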
